A study of Mus musculus with 5 samples.

Results

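Oxidative phosphorylation is carried out by 5 protein complexes of the inner mitochondrial membrane. Complexes I (NADH dehydrogenase) and II (succinate dehydrogenase) pass electrons to ubiquinone, complex III hands them to the small carrier cytochrome c, and complex IV (cytochrome c oxidase) passes them to oxygen. Complex V, the ATP synthase, uses the proton gradient that complexes I, III and IV build. Most subunits are encoded in the nucleus, and their genes were taken here from the deposited gene table by symbol: names that begin with Nduf, Uqcr, Cox4 to Cox8 or Atp5, the genes Sdha to Sdhd, Cyc1 and Cycs. This gave 87 of the 12370 symbols, of which 35 encode complex I, 4 complex II, 9 complex III, 15 complex IV and 13 complex V subunits, 1 the carrier cytochrome c (Cycs) and 10 associated factors, mostly proteins that assemble complex I. Ndufa4 and its relative Ndufa4l2 were counted with complex IV, where the Ndufa4 protein is now placed. In the lens, mitochondria are kept in the epithelium and in young fibre cells and are removed as fibres mature. The subunits encoded by mitochondrial DNA are not analysed here.

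RNA of embryonic day 14 mouse lenses was sequenced in 3 control and 2 N-myc knockout libraries. Control embryos were Cre-negative with loxP-flanked N-myc alleles. The labels describe such controls with and without loxP-flanked c-myc, and do not say which of these each library had. Knockout embryos were homozygous for loxP-flanked N-myc and carried Mlr10-Cre+/-, a transgene that drives Cre recombinase in the lens, so the transgene and the deletion cannot be told apart. Lenses were collected animal by animal and their lysates were pooled before RNA extraction, with pool sizes not given in the sources used here. P-values cover only the differences among these pools. In such bulk RNA, fewer cells of a type and less RNA per cell cannot be told apart.

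The libraries held between 13162384 and 13746416 counts. Mycn, the deleted gene, was at 162.0, 148.4 and 140.3 CPM (counts scaled to the same library total after TMM normalization) in control replicates 1 to 3 and at 57.3 and 81.9 CPM in knockout replicates 1 and 2, a 2.16-fold fall (log2 -1.11, SE 0.15, edgeR adjusted p = 0.0097). All 14 lens markers were measured, and Cryaa, an alpha-crystallin, was between 41907 and 51879 CPM. Of the 14, 4 fell, 1 rose and 9 did not pass (edgeR), and they summed to 88821 to 112041 CPM in the controls and 81401 and 95740 CPM in the knockouts. Those that fell were markers of fibre cells, Bfsp1 (3.07-fold), Crygd (2.25-fold), Maf (1.46-fold) and Mip (1.39-fold), and Pitx3, a lens transcription factor, rose 1.45-fold. The knockout libraries differed from each other in markers of other tissues. The 11 tested skeletal muscle markers summed to 2401 CPM in knockout replicate 1, 99.0 in knockout replicate 2 and 70.1 to 322.0 in the controls. The 13 tested mesenchyme markers summed to 2503, 747.1 and 592.9 to 883.6 CPM, and the 13 retina markers to 378.2, 537.0 and 198.3 to 313.2 CPM. Retina markers rose in 10 of 13 and mesenchyme markers in 5 of 13 cases, and 0 of the 11 muscle markers were called (edgeR, 8 at an unadjusted p under 0.05). No tested marker of these 3 lists was at 0 in any library. Red blood cell markers (6 tested) summed to 113.1 and 120.7 CPM in the knockouts and 151.2 to 186.4 CPM in the controls, but its members disagreed. Ermap, the 1 called gene, fell from a mean of 59.8 to 17.5 CPM (3.42-fold, edgeR adjusted p = 0.0007). Of the 6 log2 fold changes 4 were below 0, and Slc4a1 was 2.07-fold higher without passing. Endothelial markers (10 tested) summed to 271.9 and 279.9 CPM in the knockouts against 268.2 to 319.4 CPM. The part of these cell types in the results below was not tested.

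Most oxidative phosphorylation transcripts had log2 fold changes below 0 in the N-myc knockout lenses, by small amounts, and few passed the test. Of 86 tested genes, 11 fell, 0 rose and 75 did not pass the threshold (edgeR quasi-likelihood test, adjusted p under 0.05 over all 12035 genes tested). This is 12.8% of the tested members called lower, where 8.51% of all tested genes were lower and 7.98% higher. Of all genes called, 48.4% were higher, a share that became 70.3% with scaling by library totals alone, which left 7 members lower, and 39.3% with length and GC trends removed. The log2 fold change was below 0 for 80 members (93.0%), against 49.8% of all genes tested, and the median was -0.32 against 0.00 (1.25-fold lower). Of the members 55 have transcripts of 1000 bases or shorter. Among other genes of that length 65.5% were below 0, with a median of -0.16. At an unadjusted p under 0.05 there were 23 of the 86 members, a smaller share than the 4311 of all 12035 genes. DESeq2 and limma-voom also called 0 members higher. Folds of the 11 genes that fell ran from 1.22 to 2.01, and 24 further members were at least 1.3-fold lower without passing.

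**Figure D1:**
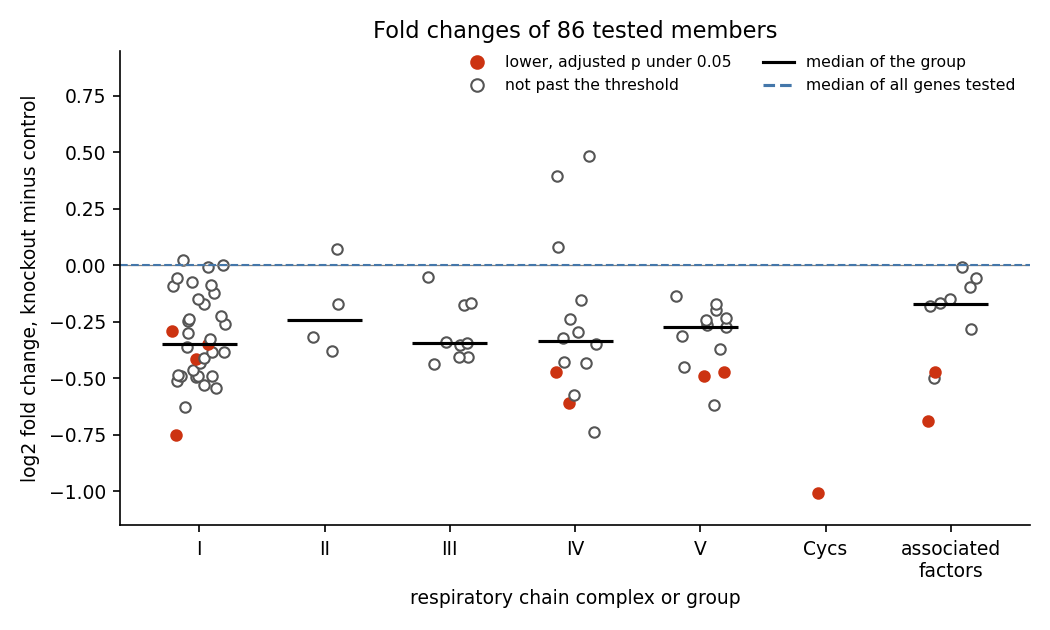
Log2 fold change (knockout minus control, y axis) of each of the 86 tested members, grouped by complex (x axis); filled points passed the edgeR threshold, black bars are group medians and the dashed line is the median of all genes tested. The medians of complexes I to V lie between -0.35 and -0.24, and the filled points are spread over complexes I, IV and V, the carrier Cycs and the associated factors.

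The result depended on single libraries. Left out in turn, control replicate 2, control replicate 3 or knockout replicate 1 each left 0 called members, while 0.142%, 0.875% and 0.937% of all genes were then called lower. Without control replicate 1 there were 16 members lower (18.6%, with 7.8% of all genes). The median log2 fold change of the members was -0.15 without knockout replicate 1 and -0.47 without knockout replicate 2. The number of members with a log2 fold change below 0 stayed between 65 and 83 of 86 over these 5 fits.

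The level of the group in each library shows the same dependence. Relative to the control mean, the median member was at -0.16, 0.18 and -0.01 on the log2 (CPM + 1) scale in control replicates 1 to 3, at -0.43 in knockout replicate 1 and at -0.12 in knockout replicate 2. Knockout replicate 1 was therefore below all controls, and knockout replicate 2 was above control replicate 1. Gene by gene, knockout replicate 1 was below the lowest control for 73 of 86 members (84.9%, with 38.8% of all genes). Knockout replicate 2 was so for 32 (37.2%, near the 33.3% of all genes). Both knockout libraries were below all controls for 31 members (36.0%, with 27% of all tested genes) and above all controls for 1 (1.16%, with 25.5%). The share below was 58.1% for members longer than 1000 bases, with 26.2% of other genes of that length. For the shorter members it was 23.6%, under the 32.8% of other short genes.

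**Figure D2:**
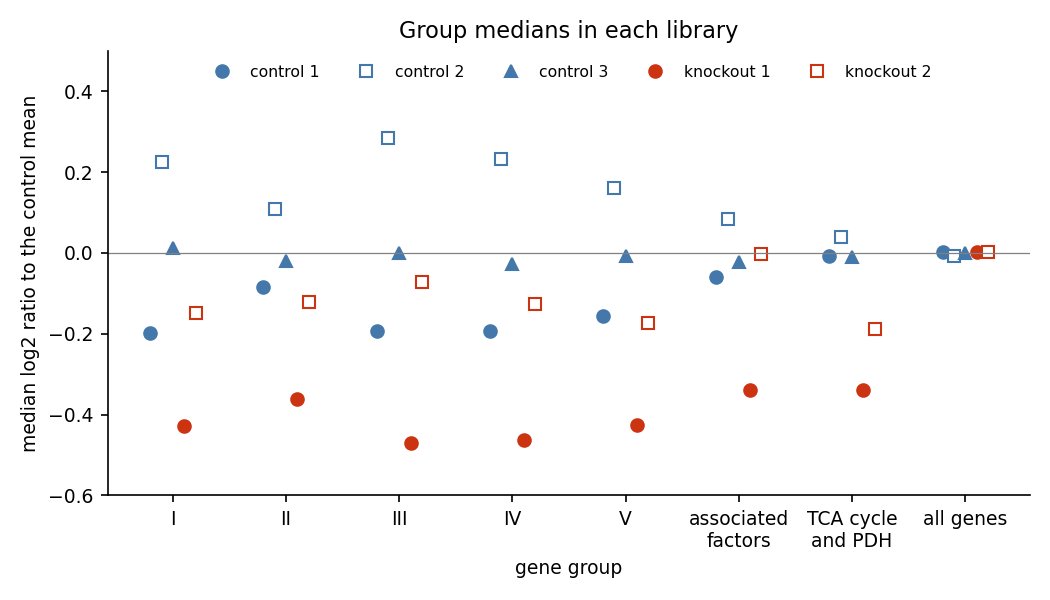
Median log2 ratio to the control mean (y axis) of the genes of each group (x axis) in the 5 libraries, with controls in blue and knockouts in red. Knockout replicate 2 lies above control replicate 1 in complexes I, III and IV and in the associated factors. Both knockout libraries lie below the controls in complexes II and V and in the TCA cycle group, there at -0.34 and -0.19.

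Complex I feeds electrons from NADH into the chain through a core of redox subunits that is surrounded by accessory subunits. Of its 35 genes 4 fell (11.4%, with 8.51% of all genes) and 31 did not pass. The median log2 fold change was -0.35 (range -0.75 to 0.02), and 33 values were below 0. Ndufc2 (chromosome 7, 97400003 to 97407802, GRCm38), an accessory subunit of the membrane arm, was at 20.8, 23.0 and 24.6 CPM in controls against 11.2 and 15.9 CPM in knockouts. It fell 1.68-fold (log2 -0.75, SE 0.17, edgeR adjusted p = 0.030), and both knockout libraries were below each control.

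Ndufs1 (chromosome 1, 63143596 to 63176833), a core subunit with iron-sulfur clusters, was at 87.2, 93.0 and 90.1 CPM in controls against 73.9 and 73.7 CPM in knockouts. The groups did not overlap and the libraries within a group were close. The gene fell 1.22-fold (log2 -0.29, SE 0.08, edgeR adjusted p = 0.042). Ndufa10 (chromosome 1, 92439010 to 92473860), an accessory subunit, was at 53.9, 60.0 and 57.5 CPM against 45.4 and 44.4 CPM (1.27-fold lower, SE 0.09 on the log2 scale, edgeR adjusted p = 0.038). Ndufa9 (chromosome 6, 126821721 to 126849136), an accessory subunit near the ubiquinone site, was at 35.4, 42.2 and 39.8 CPM against 28.8 and 30.1 CPM (1.33-fold lower, SE 0.11, edgeR adjusted p = 0.042). The knockout libraries did not overlap the controls for either gene.

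Members of the core differed from each other. Among the 7 nuclear core subunits, Ndufs1 was the only one that passed, and the median was -0.29 against -0.35 for the 28 accessory subunits, a difference that was not tested. Ndufs3 had a log2 difference of -0.54 and Ndufs8 of -0.51 (edgeR adjusted p = 0.053 and 0.082), and for both the groups did not overlap. Ndufv1 and Ndufs7 had log2 fold changes of -0.07 and 0.02, with overlap. Ndufa1, a small subunit with the highest control level per length in complex I (141.6 CPM per kilobase), was at 40.4, 76.2 and 61.4 CPM in controls against 48.0 and 70.7 CPM in knockouts. Its control libraries alone spanned a 1.88-fold range that contained both knockouts (log2 fold change 0.00, SE 0.25).

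Of the 10 associated factors 2 fell (20%, with 8.51% of all genes) and 8 did not pass. All 10 values were below 0, with a median of -0.17. Ndufaf4 (chromosome 4, 24898083 to 24905001), an assembly factor of complex I, was at 21.0, 23.1 and 20.7 CPM in controls against 12.2 and 14.6 CPM in knockouts. It fell 1.61-fold (log2 -0.69, SE 0.14, edgeR adjusted p = 0.022). Ndufaf7 (chromosome 17, 78937136 to 78948052), another assembly factor of complex I, was at 19.4, 18.6 and 17.9 CPM against 13.6 and 13.3 CPM and fell 1.39-fold (log2 -0.47, SE 0.13, edgeR adjusted p = 0.043). Both genes were lower in both knockout libraries than in each control, and the other 8 factors overlapped between the groups.

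Complex II, which also serves the TCA cycle, had 0 of 4 genes called, with 1 at an unadjusted p under 0.05. DESeq2 and limma-voom also called 0. Its median was -0.24. Sdhb, the iron-sulfur subunit, was at 58.9, 81.2 and 74.2 CPM in controls against 49.7 and 60.4 in knockouts, so that knockout replicate 2 exceeded the lowest control (log2 -0.38, SE 0.15, edgeR adjusted p = 0.11). Sdhd, a membrane anchor, had a log2 difference of -0.31 (SE 0.14, edgeR adjusted p = 0.16). The catalytic subunit Sdha was at 126.4, 136.2 and 131.7 CPM in controls against 112.3 and 120.9 CPM (log2 fold change -0.17), below each control in both knockouts. Sdhc, the other anchor, had a log2 fold change of 0.07.

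Complex III had 0 of 9 genes called by edgeR, DESeq2 and limma-voom, with 1 at an unadjusted edgeR p under 0.05. All 9 log2 fold changes were below 0, with a median of -0.34. Uqcrc2, a core protein, was at 102.4, 126.5 and 124.5 CPM in controls against 84.8 and 100.9 in knockouts, without overlap (log2 -0.34, SE 0.12, edgeR adjusted p = 0.083). Uqcrb had a log2 fold change of -0.44 (SE 0.21) and Uqcrh, the member with the highest level per length in this complex at 106.2 CPM per kilobase, -0.41 (SE 0.28). The Rieske iron-sulfur protein Uqcrfs1 was at 44.2, 47.2 and 44.2 CPM against 38.9 and 41.7 (log2 -0.17). Cyc1, cytochrome c1, which hands electrons to cytochrome c, was at 42.0, 47.6 and 47.2 CPM in controls against 39.9 and 48.0 in knockouts, at a log2 difference of -0.05 (SE 0.11, edgeR adjusted p = 0.76).

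Cycs, the gene of cytochrome c itself (chromosome 6, 50562563 to 50566538), had the largest fold change of all members. It was at 5.25, 5.54 and 5.01 CPM in controls against 2.29 and 2.94 CPM in knockouts, a 2.01-fold fall without overlap (log2 -1.01, SE 0.25, edgeR adjusted p = 0.034). Cytochrome c is a carrier of electrons between complexes III and IV and, once released from mitochondria, a trigger of caspase activation. Its gene has processed pseudogenes, near-identical copies with which reads may be shared or lost, so its level is uncertain, and the same holds for other small subunits. The ratio of Cycs to Cyc1 counts was 0.125, 0.116 and 0.106 in controls against 0.0573 and 0.0613 in knockouts. It is not corrected for transcript length or GC content, which is 40.8% for Cycs and 55.7% for Cyc1. With the length and GC trends removed, as described below, their log2 fold changes were -0.74 and -0.10.

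Complex IV had 2 of 14 tested genes lower (14.3%, with 8.51% of all genes) and 12 not called, with a median of -0.33. Cox5a (chromosome 9, 57521274 to 57532426), a subunit on the matrix side, was at 43.5, 39.7 and 34.5 CPM in controls against 22.7 and 28.8 CPM in knockouts (1.52-fold lower, log2 -0.61, SE 0.14, edgeR adjusted p = 0.032). Cox7a2l (chromosome 17, 83501918 to 83517330), which links complexes III and IV into supercomplexes, was at 39.7, 39.7 and 39.2 CPM against 26.6 and 30.4 CPM (1.39-fold lower, log2 -0.47, SE 0.10, edgeR adjusted p = 0.025). Neither gene overlapped between the groups. Cox7b, a small subunit, missed the threshold at a larger fold: it was at 40.5, 61.1 and 47.1 CPM against 23.8 and 35.7 CPM (log2 -0.74, SE 0.21, edgeR adjusted p = 0.051).

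Several complex IV subunits exist as isoforms from separate genes. Cox4i1, the common form of subunit 4 and the member with the highest level per length in this complex (137.9 CPM per kilobase), was at 79.7, 128.7 and 99.9 CPM in controls against 70.7 and 81.7 in knockouts, with overlap (log2 -0.43, SE 0.18, edgeR adjusted p = 0.13). Of the 6b pair, Cox6b1 was at 29.4, 61.2 and 45.8 CPM against 30.3 and 41.3 (log2 -0.35, SE 0.27), and Cox6b2, known from testis, at 2.12, 2.05 and 2.13 CPM against 2.65 and 2.87 (log2 0.39, SE 0.28). Cox6b2 was the only member with both knockout libraries above all controls, and it did not pass (edgeR adjusted p = 0.35). Cox5b, a separate subunit that is not an isoform of Cox5a, had a log2 difference of 0.08 (SE 0.20). Cox6a1, Cox7a2 and Cox8a, the forms of most tissues, had log2 fold changes of -0.15, -0.29 and -0.24 with overlapping groups. Cox7a1, the form of heart and skeletal muscle, was left out of the test with 3, 5 and 4 counts in controls against 8 and 3 in knockouts, the 8 being in the library with the higher muscle markers. Ndufa4 had a log2 fold change of -0.32 (SE 0.15), and Ndufa4l2, known as a hypoxia-responsive gene, 0.48 (SE 0.42) at 0.705 to 1.43 CPM.

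Complex V had 2 of 13 genes lower (15.4%, with 8.51% of all genes) and 11 not called. All 13 values were below 0, with a median of -0.27, and both knockout libraries were below all controls for 8 (61.5%, with 27% of all genes). Atp5b (chromosome 10, 128083273 to 128090391), the catalytic beta subunit and the most abundant member, was at 705.3, 765.3 and 738.8 CPM in controls against 475.5 and 585.8 CPM in knockouts. It fell 1.39-fold from 736.5 ± 30.02 CPM (SD, n = 3) to 530.6 ± 78.0 CPM (SD, n = 2; log2 -0.47, SE 0.11, edgeR adjusted p = 0.032). Atp5f1 (chromosome 3, 105942698 to 105960099), a subunit of the peripheral stalk, was at 64.0, 77.9 and 77.2 CPM against 50.2 and 53.9 CPM and fell 1.40-fold (log2 -0.49, SE 0.11, edgeR adjusted p = 0.027).

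The alpha subunit Atp5a1 pairs with beta in equal number in the enzyme, and its transcript had a smaller log2 fold change. It was at 497.9, 527.2 and 501.5 CPM in controls against 434.5 and 491.8 in knockouts (log2 -0.14, SE 0.09, edgeR adjusted p = 0.32). The ratio of Atp5b to Atp5a1 counts, which does not depend on library scaling, was 1.42, 1.45 and 1.47 in controls against 1.09 and 1.19 in knockouts. The groups did not overlap. Of 4 such ratios computed, all of pairs chosen after their values were seen and so given with no test, that of Cox5a to Cox5b was 6.38, 4.47 and 4.55 against 3.17 and 3.12. For Sdhb to Sdha the groups overlapped, at 0.467, 0.596 and 0.563 against 0.442 and 0.499. None of the 4 ratios is corrected for transcript length or GC content. Of the genes for the proton-conducting c ring, Atp5g3 was at 59.1 ± 2.25 CPM (SD, n = 3) and Atp5g1 at 8.99 ± 1.05 CPM in the controls. Their log2 fold changes of -0.27 and -0.26 were close, and neither passed (edgeR adjusted p = 0.078 and 0.32).

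**Figure D3:**
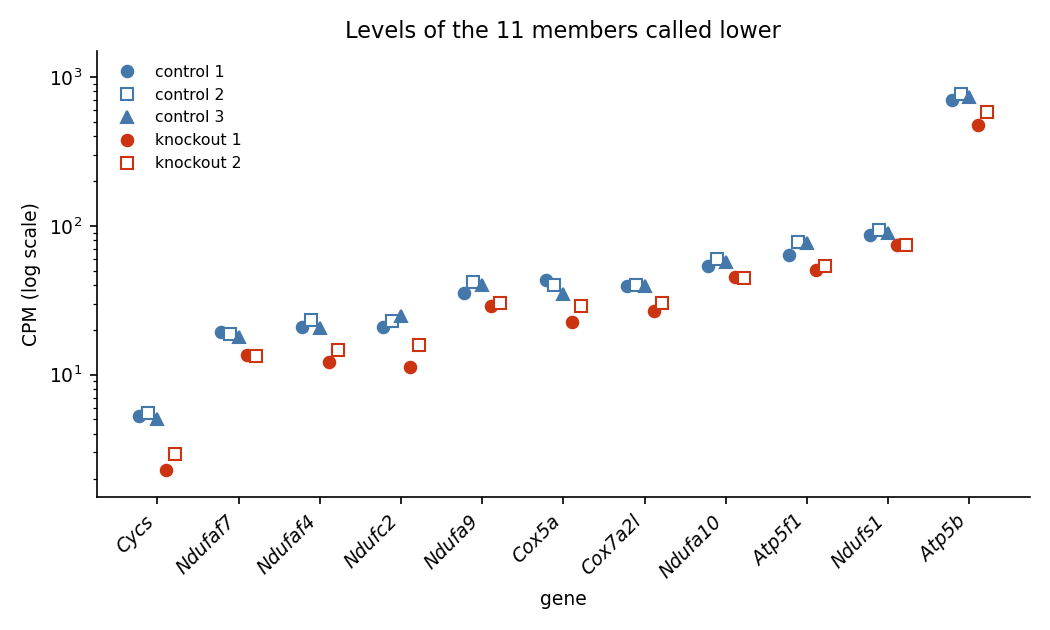
CPM (log scale, y axis) of the 11 members that fell, in the 3 control (blue) and 2 knockout (red) libraries, ordered by control level. In each gene both red points lie below the blue points, and the levels run from about 5 CPM for Cycs in the controls to 765.3 CPM for Atp5b. The genes were chosen by the test in these same libraries, so this separation is no independent evidence.

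Between complexes I and V the medians of log2 fold change spanned -0.35 to -0.24 and their ranges overlapped, and no difference between complexes was tested. Summed over genes, complex I was at 900.0 to 1181 CPM in controls against 773.3 and 926.7 CPM in knockouts, so that knockout replicate 2 lay within the controls. Complex V, of which Atp5b and Atp5a1 make up most, was at 1666 to 1876 CPM in controls against 1291 and 1526 CPM in knockouts, both below. The sums of complexes II, III and IV in knockout replicate 2 were 245.3, 399.0 and 417.6 CPM, against lowest control values of 246.2, 387.3 and 412.2 CPM.

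Calls differed with transcript length. Members are short, with a median of 737 bases against 2543 for all tested genes. Of the 31 members longer than 1000 bases 9 fell (29.0%, with 8.40% of other genes of that length), and of the 55 shorter ones 2 fell (3.64%, with 9.27%). The median log2 fold changes were alike, -0.31 and -0.32, while the median SE was 0.13 for the longer and 0.20 for the shorter members. Other genes had medians of 0.02 for the longer and -0.16 for the shorter. Values were below 0 for 100% of the longer members, with 47.2% of other genes of that length. For the shorter members the share was 89.1%, with 65.5% of other short genes. The boundary of 1000 bases was chosen after the values were seen.

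Differences among the controls also went with length. Control replicate 1 was the lowest control for 67 of 86 members and control replicate 2 the highest for 74, against 36.4% and 29.3% of all genes. The ratio of control replicate 2 to replicate 1 had a median of 1.40 for the shorter and 1.09 for the longer members, and of 1.12 and 0.98 for other genes. Across the 86 members, which share these 2 libraries, Spearman's rho between this ratio and length was -0.57. Between the knockout libraries the ratio of replicate 2 to replicate 1 had a median of 1.26 for shorter and 1.16 for longer members.

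**Figure D4:**
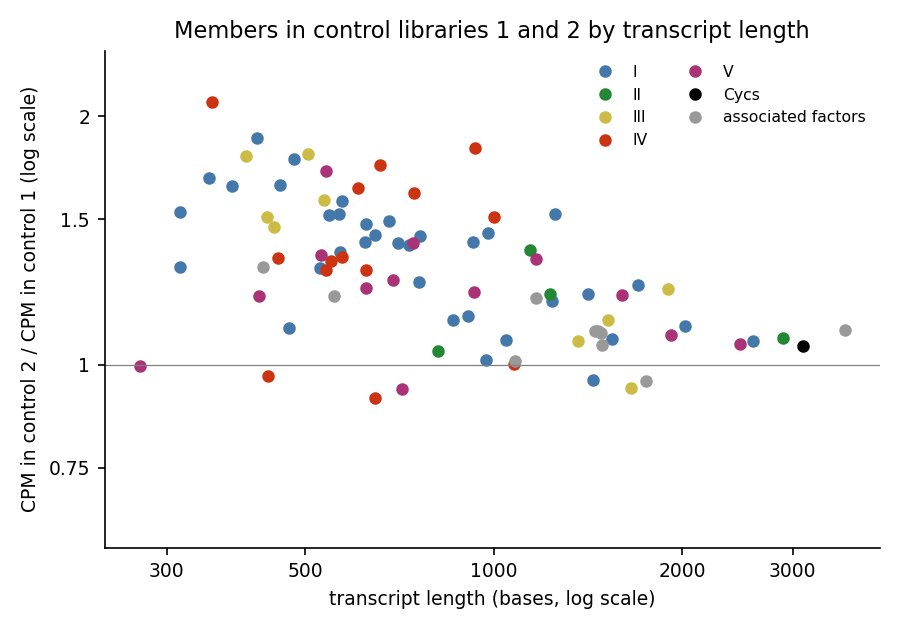
Ratio of CPM in control replicate 2 to control replicate 1 (log scale, y axis) against transcript length (log scale, x axis) for the 86 tested members, coloured by complex. Short members reach ratios of up to 2.08 (Cox6b1), and the longest members lie close to 1, such as Ndufs1 at 1.07.

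Fold changes also went with base composition. Across members the fold change and the GC content of the transcript had a Spearman's rho of 0.38, with 0.45 across all genes, which share the same libraries. After removal of the length and GC trends within libraries, 3 members were lower (3.49%, with 5.67% of all genes) and 0 higher (with 3.68%). They were Atp5b (log2 -0.44, edgeR adjusted p = 0.029), Atp5f1 (-0.35, 0.039) and Ndufa10 (-0.34, 0.033). The median of the members was then -0.13, with 68 of 86 values below 0 (79.1%, with 47.6% of all genes). Cycs was at -0.74 (edgeR adjusted p = 0.088) and Ndufa1 at 0.35.

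**Figure D5:**
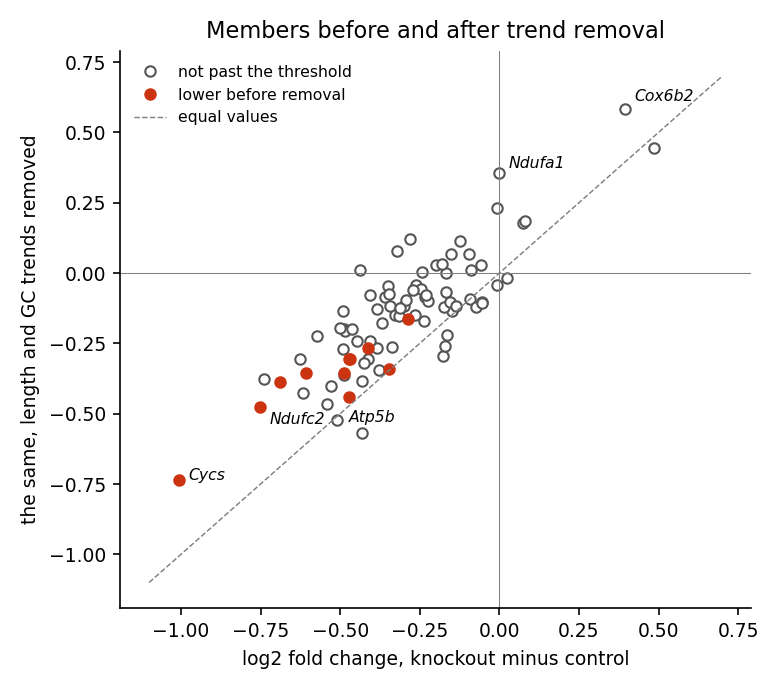
Log2 fold change of each member with the length and GC trends removed (y axis) against the value without removal (x axis); red points passed the threshold before removal. Most points lie above the line of equal values, closer to 0 than before, whereas Atp5b stays near the line.

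Genes outside the symbol rule that serve the same pathway were read from lists of textbook knowledge. Of 17 genes of the TCA cycle and pyruvate dehydrogenase, which supply the electrons, 4 fell (23.5%, with 8.51% of all genes). The other 13 did not pass. Of all 17 values 16 were below 0, with a median of -0.25. Both knockout libraries were below all controls for 14 (82.4%, with 27% of all genes). The medians of the group were within 0.04 of the control mean in the controls and at -0.34 and -0.19 in the knockouts. Dld, a shared subunit of the dehydrogenase complexes, was at 62.2, 69.9 and 71.0 CPM against 39.4 and 53.5 (1.46-fold lower, edgeR adjusted p = 0.036). Idh3a, of isocitrate dehydrogenase, fell 1.41-fold and Suclg1, of succinyl-CoA ligase, 1.36-fold. After trend removal 0 of the 17 passed (edgeR), and 14 were below 0. Before removal 12 had an unadjusted p under 0.05, as had 4311 of all 12035 genes.

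Of 9 carriers and pores that move ADP, ATP and phosphate across the mitochondrial membranes, 3 fell (33.3%, with 8.51% of all genes). The other 6 did not pass. Slc25a5, an ADP/ATP carrier, was at 95.2, 103.0 and 99.7 CPM in controls against 62.5 and 73.1 CPM in knockouts (1.47-fold lower, log2 -0.55, SE 0.09, edgeR adjusted p = 0.015). Slc25a4, the carrier of heart and muscle, was at 202.5, 248.8 and 251.3 CPM against 139.8 and 187.8 (1.43-fold lower), with its lowest value in the library with the highest muscle markers. Vdac1, an outer membrane pore, fell 1.22-fold. With the trends removed Slc25a5 passed and the other 2 did not.

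Of 40 tested assembly factors with other names 2 fell (5%, below the 8.51% of all genes) and 38 did not pass, with 32 values below 0. Coa5, for complex IV, fell 1.28-fold from 168.1, 163.2 and 165.3 to 122.7 and 135.5 CPM, and Timmdc1, for complex I, fell 1.37-fold. Of 11 genes of ubiquinone synthesis Coq7 fell 1.60-fold (9.09%, near the 8.51% of all genes) and 10 did not pass. With the trends removed Coa5 passed, and Timmdc1 (edgeR adjusted p = 0.051) and Coq7 (0.079) did not. None of the 3 passed without control replicate 2, control replicate 3 or knockout replicate 1, and Coq7 passed in 4 of 12 alternatives. Of 17 regulators of mitochondrial biogenesis and mitochondrial DNA 1 rose, 1 fell (5.88% each, with 7.98% and 8.51% of all genes) and 15 did not pass. Nrf1, a transcription factor for respiratory chain genes, rose 1.25-fold from 36.9, 34.6 and 36.9 to 46.9 and 43.7 CPM (log2 0.33, SE 0.09, edgeR adjusted p = 0.048). Gabpa, the DNA-binding part of the factor also called NRF2, fell 1.26-fold from 78.7, 83.8 and 89.2 to 62.8 and 70.1 CPM (edgeR adjusted p = 0.045). Ranges of both genes did not overlap, and with the trends removed Nrf1 passed and Gabpa did not. Neither gene was past the threshold with limma-voom, and Nrf1 also missed it with DESeq2 and without any 1 of the 5 libraries. Gabpa missed it without control replicate 2 (log2 -0.33), control replicate 3 (-0.28) or knockout replicate 1 (-0.26).

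Promoters of members were searched because Nrf1, Gabpa and the deleted factor each have known DNA motifs. RefSeq windows (GRCm38.p6) of 300 bases, from 250 before to 50 after a transcription start, were matched for 73 of the 87 members, and a gene was counted if any of its windows held a motif on either strand. The NRF1 motif, a palindrome spelled out in capitals in the sequences printed here, was in 6 of 73 (8.22%, with 2.39% of 9322 tested genes). The core of the ETS motif bound by Gabpa, CCGGAAG, was in 17 (23.3%, with 20.7%), and the E-box CACGTG of MYC proteins in 6 (8.22%, with 12.0%). AAGATGG, the core of the YY1 motif, was in 13 (17.8%, with 8.66%). The search used exact letters only, and none of the 4 motifs contains another. Of the 10 called members with a window, 1 held the NRF1 motif, 1 the E-box, 2 the YY1 core and 0 the ETS core. The 150 bases before the start are shown for a called member with the NRF1 motif, Ndufaf4, and for one with it that was not called, Ndufa11, with the motif in capitals.
Ndufaf4, chr4:24897933-24898082, plus strand: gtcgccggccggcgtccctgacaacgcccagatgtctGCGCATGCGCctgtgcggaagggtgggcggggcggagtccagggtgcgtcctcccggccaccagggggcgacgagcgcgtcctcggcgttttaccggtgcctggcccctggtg
Ndufa11, chr17:56717612-56717761, plus strand: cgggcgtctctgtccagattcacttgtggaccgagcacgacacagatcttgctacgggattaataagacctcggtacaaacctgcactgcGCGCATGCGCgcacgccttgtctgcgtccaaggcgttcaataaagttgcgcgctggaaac

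The same NRF1 letters stood before members with different fold changes. Ndufaf4 fell 1.61-fold, whereas Ndufa11, an accessory subunit of complex I, was at 18.0, 27.2 and 18.2 CPM in controls against 20.5 and 20.2 CPM in knockouts (log2 -0.06, SE 0.19, edgeR adjusted p = 0.85). Atp5k, a small subunit of complex V with this motif, was at 12.93, 12.90 and 8.96 CPM against 4.79 and 10.33 CPM (log2 -0.62, SE 0.32, edgeR adjusted p = 0.20). These matches are descriptions of letters in a window, and binding was not measured.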

How the data were processed

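Raw counts for 5 libraries stood in 1 table by gene symbol, as deposited by the authors. The submitters' processing notes name HTSeq 0.6.1, TopHat2 2.0.13, DESeq2, Cufflinks 2.2.1, Trim Galore 0.3.7 and build mm10, without saying what each did. Annotation, strand setting and the choice of the 12370 symbols are unstated in these sources, so reads of overlapping or antisense genes cannot be told apart. Library groups and replicate numbers came from the sample titles.

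The test was edgeR 4.0.16 in R 4.3.3: filterByExpr (minimum count 10, 12035 symbols kept, 335 removed), TMM scaling, and glmQLFit and glmQLFTest over all 5 libraries with no covariate. Benjamini-Hochberg adjustment ran over all tested genes (threshold 0.05). Each SE is the size of the log2 fold change over the square root of F. No 2 libraries of a group were duplicates within sampling noise (chi-square over its degrees of freedom between 9.98 and 23.4). Length and GC content came from the basic protein-coding transcript of median length in GENCODE vM21 (GRCm38), known for 99.4% of tested genes. Their trends were fitted by loess (span 0.3) per library and entered as offsets in an alternative. DESeq2 1.42.0, limma-voom (limma 3.58.1), other scalings, no filter, a replicate block and leaving out each library were the other alternatives.

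Named genes were Mycn, up to 6 called members per complex and direction (the 2 of smallest p where none was called), Cycs, Cyc1, isoform sets, the member with the highest level per length in each complex, the 3 largest changes in each direction and up to 3 called genes per further list. Members, lists and rules were chosen with earlier results of these data known. Other genes named were chosen after their values were seen.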

Additional observations from a re-analysis of the deposited data

How the results depend on the processing

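The count of members lower, 11 in the main analysis, was 15 with DESeq2 (17.4%, with 10% of all genes). The same 11 genes were called with limma-voom, DESeq2 size factors or no filter on low counts. Members higher were 0 under each alternative. With scaling by library totals alone, 1511 genes were higher and 637 lower, 7 members were lower, 1 of them in complex I, and the median of all genes moved to 0.087. With the length and GC trends removed these were 440, 679, 3 and 1, with 0 lower in complex IV and medians of -0.1314 for members and -0.1335 for complex I.

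The control and knockout libraries share replicate numbers 1 and 2 only. Deviations of same-numbered libraries from their group means had correlations of -0.093 and 0.0073. With 2 knockout libraries, the knockout deviations mirror each other, so both correlations rest on 1 knockout difference. They cannot tell whether same-numbered libraries share a batch, and the labels give no batch. With the replicate block, 473 genes were higher and 522 lower, 7 members were lower, 5 of the 11 among them, and 2 in complex I.

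Leaving out 1 library in turn gave 21 to 1426 genes higher and 17 to 1291 lower. Members lower were 0 to 17, with 0 to 7 in complex I, 0 to 1 in complexes II and III, 0 to 3 in complex IV and 0 to 4 in complex V. Medians ran from -0.4672 to -0.1475 for members, -0.4749 to -0.1695 in complex I, -0.3754 to -0.1248 in II, -0.5332 to -0.0726 in III, -0.5121 to -0.1413 in IV and -0.4593 to -0.1805 in V. In the same fits Ndufa1 ran from -0.3073 to 0.2536, Cyc1 from -0.1928 to 0.0756 and Cox5b from -0.1189 to 0.2545.

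Log2 fold changes also changed sign for Ndufa1 without a filter (-0.001711), Cyc1 with library totals (0.02857), and Uqcrb (0.009876) and Ndufa4 (0.07962) with the trends removed. Causes were not tested. In controls 17 members were under 10 CPM.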
